A study of Mus musculus with 4 samples.

Results

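The antioxidant enzymes described here are 10 genes, Gpx1, Gpx2, Gpx3, Gpx4, Cat, Sod1, Sod2, Prdx1, Nqo1 and Gclc, in small intestine of mice labelled HNF4 null or control. Their probe sets were taken as all those that the platform annotation assigns to exactly 1 of these symbols. This gave 15 of 22626 probe sets, covering 9 of the 10 genes, out of 12393 genes with a probe set of their own. Prdx1, a thiol peroxidase, had 5 probe sets, but each of them is annotated to Gm21399 as well, so no value is assigned to it. One dim Sod2 probe set was described but not tested, which left 14 tested probe sets for 9 genes.

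Total RNA from 4 mice, each 1 month old, was hybridised to 1 Affymetrix array per mouse. HNF4 proteins are nuclear receptors expressed in liver and in the epithelium of the gut. Each group held 1 male and 1 female. The 2 mice labelled null had the genotype HNF4 loxP/- with villin cre, a recombinase active in intestinal epithelium. The female control was HNF4 loxP/+ with villin cre, and the male control was HNF4 loxP/- without cre. All 4 mice thus carried at least 1 loxP allele, 3 of them shared the minus allele, and in the controls sex goes with genotype, so their effects cannot be told apart there. The labels name neither the targeted paralogue, Hnf4a or Hnf4g, nor the segment of small intestine, nor any separation of epithelium from the wall.

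Superoxide dismutases turn superoxide into hydrogen peroxide, and catalase, the glutathione peroxidases and the peroxiredoxins remove the peroxide. Glutathione, the thiol that glutathione peroxidases spend, is made in a pathway whose first step needs Gclc, and many genes of glutathione synthesis and quinone reduction are targets of the transcription factor NRF2. The intestinal epithelium meets oxidants from food, microbes and its own fatty acid oxidation, and it expresses Gpx2 as a largely gut-specific glutathione peroxidase.

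Median deposited intensities lay between 43.24 and 53.32 on the 4 arrays, and the male null animal had the lowest. The brightest Hnf4a probe set read 1136 in the male and 1025 in the female labelled null, and 731 in the male and 1141 in the female control, so the groups overlapped. The brightest Hnf4g probe set read 327 and 445 in the male and female labelled null and 309.6 and 404 in the male and female control, which overlapped too. Which part of the gene was removed is not stated, so these values do not check the labels. Over all probe sets tested, 2 of 15838 (0.0126%) passed an adjusted p of 0.05 in limma, St3gal4 higher and Pla2g2a lower in the null animals, and neither is an antioxidant enzyme. With sex as a block 29 passed (0.183%), again without an antioxidant enzyme. Each group had 2 animals, and no p-value below covers more than the spread between these 4 arrays.

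None of the 14 antioxidant probe sets passed the threshold, and each had an adjusted p of 1 in limma. Among them, 10 were lower and 4 higher in the null animals, with a median difference of −0.12 on the scale of log2(intensity + 16), against −0.012 over all probe sets tested. Taking each gene by its brightest probe set, 5 were lower and 4 higher, where 4749 of all 9546 genes tested were lower. Gclc, Nqo1 and Cat were lower in both null animals than in both controls on each of their probe sets. These were 5 of 14 probe sets (35.7%), where 16.3% of all probe sets tested had both null arrays below both controls, each counted after normalization. The 5 belong to 3 genes, so they are not 5 independent observations. An unadjusted p under 0.05 in limma was reached by 4 of the 14, all lower, where 1.72% of all probe sets tested were lower at that p. The members were chosen with earlier results of these data known, so these shares are a description and not support.

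**Figure D1:**
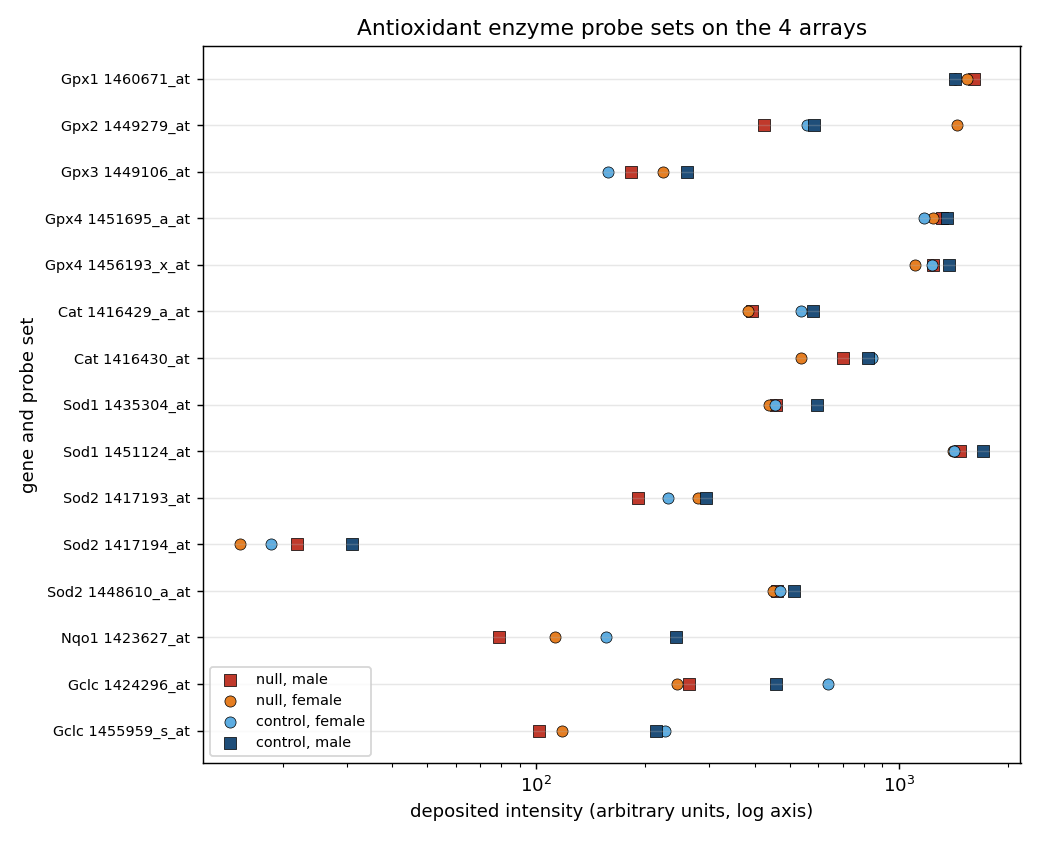
Deposited intensity (log axis, arbitrary units) of the 15 antioxidant probe sets on the 4 arrays, 1 point per array, with squares for males and circles for females. Both null arrays lie to the left of both controls for Gclc, Nqo1, Cat and, by a narrow gap that normalization closed, Sod2 on 1448610_a_at, and the female null array stands alone at 1442 for Gpx2.

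Gclc, the catalytic subunit of glutamate-cysteine ligase and the rate-limiting enzyme of glutathione synthesis, had the largest difference among the members tested. Its probe set 1424296_at read 264 in the null male and 244 in the null female, against 458 in the control male and 639 in the control female. Both null values were well below the lower control. On the log2 scale the null mean was 8.10 ± 0.19 and the control mean 9.10 ± 0.30 (SD over n = 2 animals), a difference of −1.003 (SE 0.22, 95% interval −1.52 to −0.48), which is 2.004-fold. The unadjusted p was 0.00286 and the adjusted p 1 in limma.

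The other Gclc probe set, 1455959_s_at, whose suffix marks probes that can be shared between transcripts, read 102 in the null male and 118 in the null female, against 214 in the control male and 226 in the control female. The groups were again apart, with an SD of 0.016 in the null and 0.026 in the control animals on the log2 scale. The SE below is far larger than this spread, because limma also draws on the spread of other probe sets. The difference was −0.87 (SE 0.20, 95% interval −1.34 to −0.40), with an unadjusted p of 0.00358 and an adjusted p of 1 in limma. Null minus control within the males was −0.66 and −0.84 on these probe sets, and within the females −1.35 and −0.90. Both probe sets read the same RNA of the same 4 animals and are not separate evidence.

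Nqo1, a quinone reductase that uses NADH or NADPH and a much used marker of NRF2 activity, had a single probe set, 1423627_at. It read 78.8 in the null male, 113 in the null female, 242 in the control male and 155 in the control female. The groups did not overlap, but the controls differed from each other by more than the females of the groups did. The difference was −0.88 (SE 0.27, 95% interval −1.53 to −0.23), or 1.84-fold, with an unadjusted p of 0.0153 and an adjusted p of 1 in limma. It was −1.31 between the males and −0.45 between the females.

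Cat encodes catalase, the peroxisomal enzyme that splits hydrogen peroxide without using a thiol. Its probe set 1416429_a_at read 393 in the null male and 384 in the null female, against 579 in the control male and 536 in the control female. The difference was −0.47 (SE 0.17, 95% interval −0.87 to −0.06), or 1.38-fold, at an unadjusted p of 0.0297 in limma, and it was nearly equal between the males (−0.48) and between the females (−0.45). The brighter probe set, 1416430_at, read 701 in the null male and 538 in the null female, against 819 in the control male and 842 in the control female. It differed by −0.39 (SE 0.18) at an unadjusted p of 0.0699 in limma, with an interval from −0.83 to 0.04, and by −0.17 between the males and −0.61 between the females. The null female was the lowest of the 4 arrays on both probe sets. Without the null female the difference of the brighter one was −0.19, while that of the other was −0.42.

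**Figure D2:**
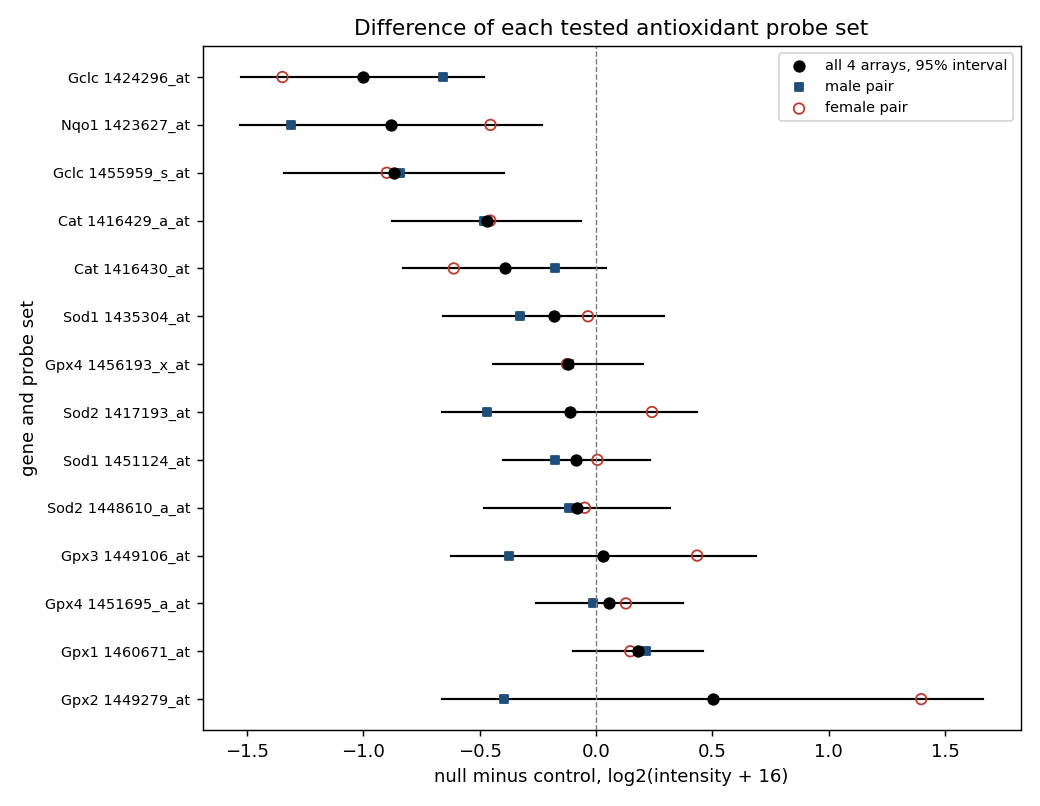
Null minus control difference in log2(intensity + 16) for the 14 tested antioxidant probe sets, with the 95% interval of the limma fit over all 4 arrays (black), the male pair (squares) and the female pair (open circles). The intervals of both Gclc probe sets, Nqo1 and 1 Cat probe set lie below 0 before adjustment, and the pairs of Gpx2 lie at −0.39 and 1.40.

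Promoter sequences were read for the members from RefSeq windows of assembly GRCm38.p6, each from 250 bases before to 50 bases after a transcription start. Of the 10 genes 9 matched, with 12 windows in all, because Gpx4 has several starts. The windows were searched on both strands for the antioxidant response element core TGACNNNGC, the site that NRF2 binds, and for the HNF4 motif core CAAAGTCCA. The response element core was found in 2 of the 12 windows, those of Prdx1 and Sod1, where 12.4% of all 32851 windows hold it. The HNF4 core was found in 0 of the 12 and in 0.475% of all windows. Printed here are the 100 bases before the start of Nqo1 and Cat, the members lower in both null animals that have a window, and of Sod1, the tested member with a match, which capitals mark.
Nqo1: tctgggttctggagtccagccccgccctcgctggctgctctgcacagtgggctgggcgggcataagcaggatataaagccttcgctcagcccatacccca
Cat: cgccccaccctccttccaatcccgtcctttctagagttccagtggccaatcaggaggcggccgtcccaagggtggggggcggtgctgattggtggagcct
Sod1: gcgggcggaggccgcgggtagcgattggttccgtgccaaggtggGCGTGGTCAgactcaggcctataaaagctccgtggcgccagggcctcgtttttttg
The Nqo1 stretch is chr8:107403206-107403305 on the minus strand, that of Cat is chr2:103485154-103485253 on the minus strand, and that of Sod1 is chr16:90220662-90220761 on the plus strand. In Sod1 the match lies on the strand opposite to the gene and starts 56 bases before the transcription start, and Sod1 did not separate the groups on either probe set. The absence of these letters from a window says nothing about sites elsewhere.

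The 4 glutathione peroxidases, selenoenzymes that reduce peroxides with glutathione, did not share a direction. Gpx1, the widespread cytosolic form, was the only member whose null values both lay above both controls, at 1614 in the null male and 1539 in the null female against 1426 in the control male and 1424 in the control female. That separation was found in 13.5% of all probe sets tested. The difference was small, 0.18 (SE 0.12, 95% interval −0.10 to 0.46), and similar in the male pair (0.22) and the female pair (0.15), with an adjusted p of 1 in limma.

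Gpx2, the glutathione peroxidase of gut epithelium, had the widest spread between animals of the members tested. Its probe set 1449279_at read 425 in the null male, 1442 in the null female, 583 in the control male and 559 in the control female. The null female stood far above the other 3 arrays and the null male below them, so the groups overlapped. The difference over 4 arrays was 0.50 with an SE of 0.49 (95% interval −0.66 to 1.67), and the pairs differed in sign, at −0.39 for the males and 1.40 for the females. Without the null male the difference was 1.34 with an adjusted p of 0.0478 in limma, on a null group of 1 array assumed to vary like the controls, where the adjusted p over all alternatives ranged from 0.0478 to 1. Without the null female it was −0.35. The null group alone had an SD of 1.19 on the log2 scale, against 0.07 in the controls.

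Gpx3, the secreted form found in plasma, read 183 in the null male and 223 in the null female, against 261 in the control male and 158 in the control female. The null values lay between the 2 controls. Its difference was 0.03 (SE 0.27, 95% interval −0.62 to 0.69), with −0.37 between the males and 0.44 between the females.

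Gpx4, which reduces lipid peroxides in membranes and guards against ferroptosis, had 2 probe sets, and both overlapped between the groups. Probe set 1451695_a_at read 1319 in the null male and 1245 in the null female, against 1359 in the control male and 1169 in the control female. Probe set 1456193_x_at read 1242 and 1109 for null, male before female, and 1371 and 1233 for control. Their differences of 0.06 (SE 0.13) and −0.12 (SE 0.14) had intervals that reached no further than −0.44 and 0.37.

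The superoxide dismutases overlapped between the groups on all 4 of their tested probe sets after normalization, although on 1 of them, a Sod2 probe set, the deposited values did not. Sod1, the cytosolic copper and zinc enzyme, read 1477 in the null male and 1408 in the null female, against 1710 in the control male and 1420 in the control female on 1451124_at. The difference was −0.08 (SE 0.13, 95% interval −0.40 to 0.23). On 1435304_at it read 459 and 438 for null, male before female, and 593 and 456 for control, a difference of −0.18 (SE 0.20). The control male was the highest array on both Sod1 probe sets.

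Sod2, the manganese enzyme of mitochondria, read 460 in the null male and 449 in the null female, against 513 in the control male and 470 in the control female on 1448610_a_at. Both null values were below both controls as deposited, but not after normalization, where the null male stood at 8.93 and the control female at 8.90 on the log2 scale. The values were close together, at a difference of −0.08 (SE 0.17, 95% interval −0.48 to 0.32). On 1417193_at it read 191.1 and 279 for null, male before female, and 294 and 231 for control, which overlapped at a difference of −0.11 (SE 0.23). The third probe set, 1417194_at, read 21.9 and 15.2 for null and 31 and 18.6 for control. It was among the dimmest 30% of probe sets, was not tested, and is not shown to lie above background.

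The members were set beside 7 lists of other redox genes, each gene taken by its brightest probe set. The lists too were chosen with earlier results of these data known, so their shares are a description and not support. Of these genes 68 had a probe set of their own and 59 were bright enough to test. None passed the threshold over all probe sets in limma. In all 34 were lower and 25 higher, with a median of −0.019 against 0.0013 over all 9546 genes tested. Of all those genes 4749 were lower and 4797 higher, which is the background for the count by direction in each list below. Both null arrays lay below both controls for 16 of the 59 (27.1%), where 15.2% of all genes did, and above them for 5 (8.47%), where 14.4% did. An unadjusted p under 0.05 in limma was found for 4 lower genes, Ccs, Ggct, Me1 and Idh2, where 1.75% of all genes were lower at that p. The 1 higher gene, Chac1, passed the brightness filter only through its null arrays, so nothing is read from its p, and 1.46% of all genes were higher at that p.

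**Figure D3:**
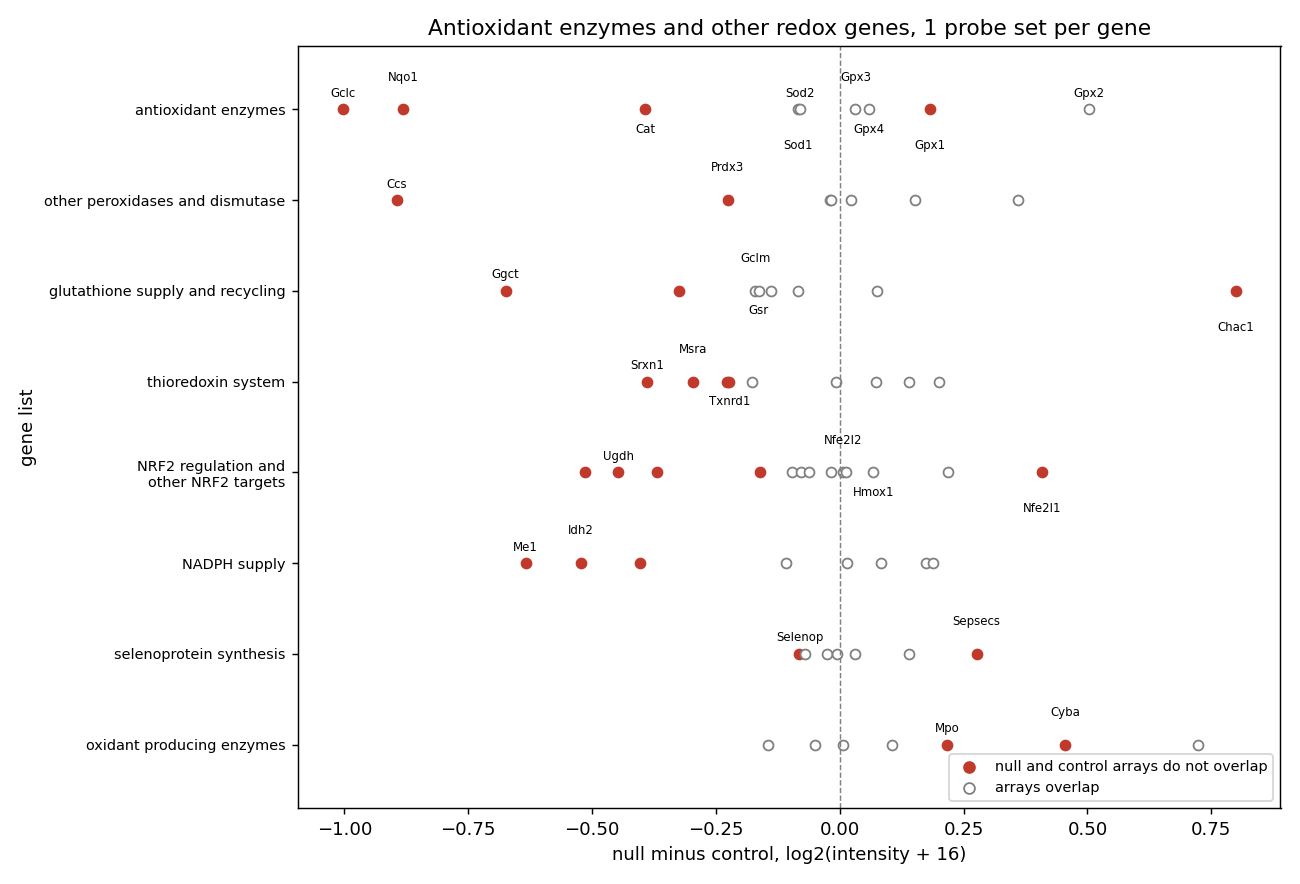
Null minus control difference in log2(intensity + 16) for the 9 tested antioxidant genes and 59 other redox genes, 1 point per gene by its brightest probe set, with a row for each list. Filled points are genes whose null and control arrays do not overlap after normalization, among them Gclc, Nqo1, Cat and Gpx1 of the members, and Ccs and Chac1 are the farthest such points among the other lists.

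Of other peroxidases and dismutase genes, 4 of 7 were lower and 0 passed. Ccs, the chaperone that loads copper into Sod1, read 79.7 in the null male and 102 in the null female, against 201 in the control male and 177 in the control female. The groups were apart by −0.89 (SE 0.21, unadjusted p 0.00433 and adjusted p 1 in limma), with −1.04 between the males and −0.74 between the females, while Sod1 itself overlapped. Prdx3, the mitochondrial peroxiredoxin, differed by −0.23, and by only −0.02 between the females.

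Glutathione supply and recycling had 6 of 8 genes lower and 0 passing. Gclm, the partner subunit of Gclc, did not separate the groups, with 138 and 193 for null, male before female, against 252 and 146 for control, and it differed by −0.68 between the males and 0.33 between the females. Gsr, which regenerates reduced glutathione, overlapped too, at a difference of −0.16 (SE 0.34). The 2 genes of this list named by the smallest p both act on gamma-glutamyl groups in glutathione turnover. Ggct differed by −0.67 (SE 0.23). Chac1, which degrades glutathione, differed by 0.80 (SE 0.26), but its controls read 17 and 17.7, below the brightness that a probe set needed on average to be tested, and are not shown to lie above background.

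In the thioredoxin system 6 of 9 genes were lower and 0 passed. Srxn1, which repairs overoxidised peroxiredoxins, differed by −0.39 (SE 0.23) on its brightest probe set, by −0.049 between the males and −0.73 between the females, and its other 3 probe sets gave −0.72, −0.14 and 0.03. Txnrd1, the cytosolic thioredoxin reductase, differed by −0.22 (SE 0.17) on its brightest probe set and by −0.60 (SE 0.24) and 0.13 (SE 0.27) on the others. For both genes, the brightest probe set and the one with the largest difference had both null arrays below both controls. That held for 16.3% of all probe sets tested. The probe sets of opposite sign, 0.03 (SE 0.27) for Srxn1 and 0.13 for Txnrd1, overlapped between the groups. Msra, a methionine sulfoxide reductase, differed by −0.30 (SE 0.20).

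NRF2 regulation and other NRF2 targets had 8 of 13 genes lower and 0 passing. Nfe2l2, which encodes NRF2, read 698 in the null male and 543 in the null female, against 693 in the control male and 578 in the control female, a difference of 0.01 (SE 0.20). Hmox1, the inducible heme oxygenase, read 78.3 and 85.3 for null and 81.2 and 78.8 for control, male before female, a difference of 0.07 (SE 0.21). Neither separated the groups as Nqo1 and Gclc did. In this list both null arrays lay below both controls for 4 of 13 genes (30.8%), Ugdh, Nqo2, Ephx1 and Mafg. They lay above both controls for 1 gene (7.69%), Nfe2l1, where 15.2% of all genes lay below and 14.4% above. Ugdh, which makes UDP-glucuronic acid, differed by −0.45 (SE 0.19), and Nfe2l1, a relative of NRF2, by 0.41 (SE 0.23).

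NADPH supply had 4 of 8 genes lower and 0 passing. Me1, the cytosolic malic enzyme, read 115 in the null male and 137 in the null female, against 185 in the control male and 237 in the control female on its brightest probe set. The groups were apart by −0.63 (SE 0.21), and by −0.85 on its other probe set. Idh2, the mitochondrial NADP-dependent isocitrate dehydrogenase, differed by −0.52 (SE 0.20), with −0.56 between the males and −0.48 between the females.

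Selenoprotein synthesis, which supplies the selenocysteine of the glutathione peroxidases and is listed here with some selenoproteins, had 4 of 7 genes lower and 0 passing. Selenop, the selenium transport protein, differed by −0.08 (SE 0.08) and Sepsecs, which makes selenocysteine on its tRNA, by 0.28 (SE 0.25). Of the oxidant producing enzymes 5 of 7 were higher and 0 passed. Cyba, a subunit of NADPH oxidases, differed by 0.45 (SE 0.24) and Mpo, the myeloperoxidase of neutrophils, by 0.22 (SE 0.23). Aox1, an aldehyde oxidase named here after its values were seen, read 20.2 in the null male, 150 in the null female and 32.6 in each control. As with Gpx2, the null female stood alone, and the other 3 arrays were dim. The adjusted p was 1 with all 4 arrays in limma. Without the null male it was 0.0433 in limma at a difference of 1.70, but the null group is then 1 array, assumed to vary like the 2 controls.

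Summed markers of several cell types separated the groups too, although of all markers tested only Pla2g2a passed the threshold. Of all genes tested, 15.2% had both null arrays below both controls and 14.4% had them above. The summed normalized intensity of 7 enterocyte markers was 29210 to 30380 in the null animals and 32160 to 32960 in the controls, and all 7 were lower, at a median of −0.14. Apoa1 and Lct among them overlapped between the groups. The summed level of 8 T cell markers was 691 to 895 against 1092 to 1213, and all 6 tested were lower. Of those tested, only Cd7 and Gzma, the brightest, had both null arrays below both controls, and the others overlapped. Goblet cell markers stood at 21590 to 22680 against 17420 to 17780, with 7 of 7 higher at a median of 0.50, though Clca3a1 overlapped. Fcgbp and Zg16 overlapped as deposited and were apart only after normalization, Fcgbp by 11.238 in the null female against 11.235 in the control male on the log2 scale. The sum of 5 Paneth cell markers was 14450 to 14850 against 18910 to 18960, but of the 4 tested 2 were lower and 2 higher, at a median of 0.03. Without Pla2g2a the Paneth sum was 14140 to 14290 in the null animals against 13130 to 14040, and Mmp7, a Paneth cell protease, differed by 1.22. In bulk tissue, fewer cells of a type and less RNA per cell cannot be told apart. No measured marker in these lists was at or below 0 on any array, and the part of these shifts in the differences of Gclc, Nqo1 and Cat was not tested.

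The null female, which set the Gpx2 value, also had the highest sums for 8 smooth muscle markers (3010 against 2270 to 2370 on the other arrays) and 6 fibroblast markers (1643 against 883 to 1020). All 8 smooth muscle markers were higher over the null group, and Acta2, the brightest, was highest in the null male. Des, Lmod1 and Smtn had both null arrays above both controls after normalization, where 14.4% of all genes tested did, and the others overlapped. The Lmod1 controls were dim, at 13.3 and 18.1. The null male had the highest sums for 3 red blood cell markers (241 against 147 to 149) and for 4 pancreatic acinar markers (926 against 509 to 567). Sums of 8 myeloid and 6 B cell and plasma cell markers overlapped between the groups, at 4274 to 4727 and 2083 to 3445 over the 4 arrays. Most of the myeloid sum was Lyz2, whose null arrays were both below both controls, where 15.2% of all genes tested were. Those of Cd14, Csf1r and Ctss were both above. Most of the other sum was Jchain, while Cd79a, Cd79b and Ms4a1 were lowest in the control male. Cd79b read 28.5 there and 88.3 to 201 on the other arrays. The part of these markers in the values of Gpx2 and Gpx1 was not tested.

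**Figure D4:**
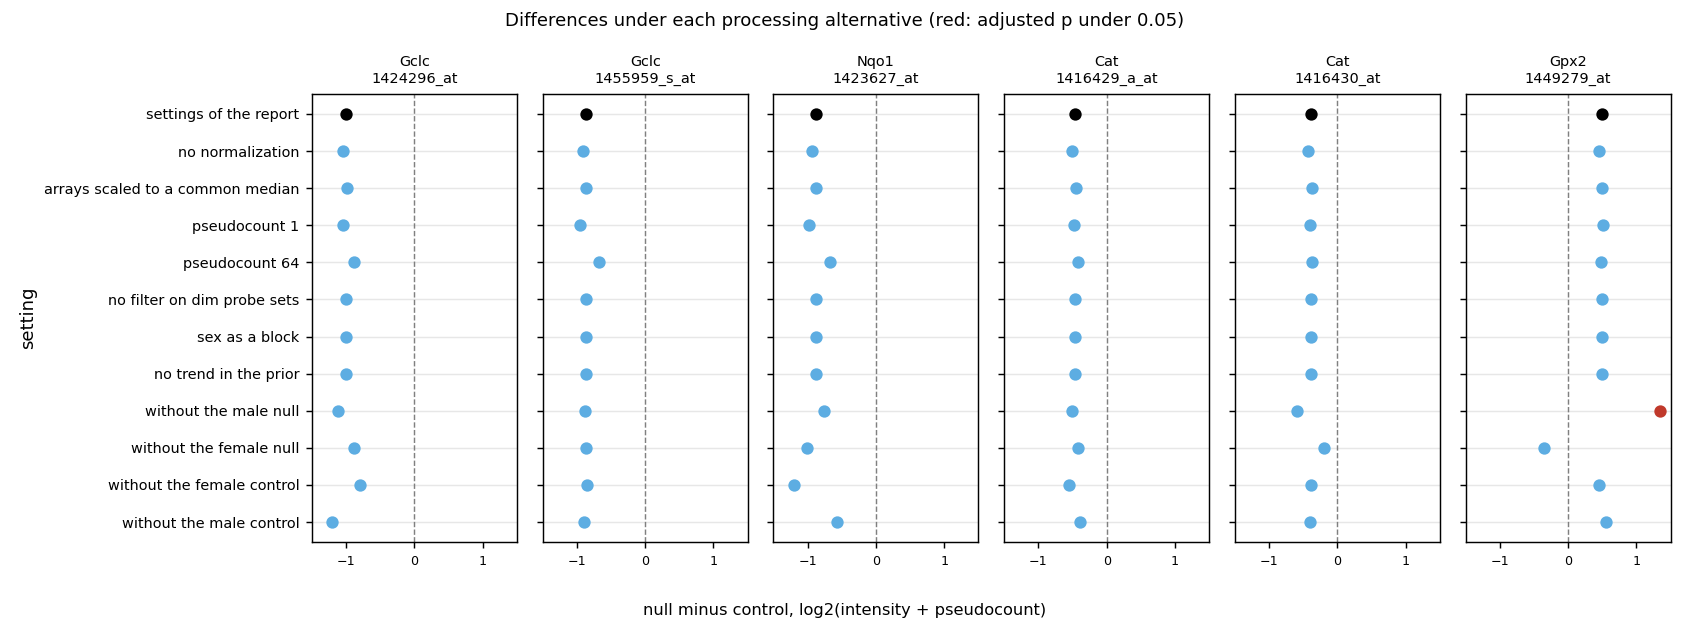
Null minus control difference of the 5 separated Gclc, Nqo1 and Cat probe sets and of Gpx2 with the settings of the report (black) and under 11 alternatives (blue, or red where the adjusted p was under 0.05), in log2 units. Gclc, Nqo1 and Cat stay below 0 in each, between −1.22 and −0.19, which their choice as separated probe sets largely fixed. Gpx2 moves from −0.35 without the null female to 1.34 without the null male.

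The differences of the 5 separated probe sets kept their sign under all 11 alternatives, which was largely fixed in advance. Sex as a block, no trend and no dim filter leave a difference as it is. Where both null arrays lie below both controls, leaving out an array can hardly reverse the sign. The kept sign is therefore not support. Gclc lay between −1.22 and −0.79 on 1424296_at and between −0.95 and −0.68 on 1455959_s_at. Nqo1 lay between −1.19 and −0.57, its smallest without the control male. Cat lay between −0.55 and −0.40 on 1416429_a_at and between −0.59 and −0.19 on 1416430_at. None of these 5 reached the threshold under any alternative, where the smallest adjusted p in limma was 0.124, for Gclc with sex as a block, in a range from 0.124 to 1.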

How the data were processed

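The deposited values are linear intensities, 1 for each probe set on each array, some below 0. The authors' summary software, background correction, scaling and detection calls are not given in the sources used. Per the labels, RNA was labelled with biotin for Affymetrix arrays. The number of arrays limits the precision. Array medians of log2(intensity + 16) differed by 0.227, above a limit of 0.2, so intensities were quantile normalized, floored at 0, raised by 16 and log2 transformed, which understates differences of dim probe sets. Control probe sets (64) and the dimmest 30% were left out. The 15838 others were fitted with limma 3.58.1 in R 4.3.3 (lmFit and eBayes with an intensity trend, two-sided, no covariate, Benjamini-Hochberg adjustment over every tested probe set). The script was tested on simulated data with planted changes larger than the difference of any member. That test does not show whether differences of the members' size would be detected. Symbols came from the platform annotation: 20380 probe sets had 1 gene, 691 several and 1555 none.

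The members and lists were chosen with earlier results of these data known. Named redox genes were, per list, the 2 with the smallest p and 1 sign in both sex pairs, plus Gclm, Gsr, Txnrd1, Hmox1, Srxn1 and Nfe2l2. The lists hold old and current symbols of some genes. A planned protein comparison was not run, as no protein table was used here. Alternatives were 2 other scalings, 2 pseudocounts, no dim filter, sex as a block, no trend and each array left out.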

Additional observations from a re-analysis of the deposited data

Results flagged for a closer look

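For 12 probe sets described above, the male pair and the female pair moved in opposite directions. With 1 animal per sex in each group the difference between the pairs was not tested. The male and the female control also differ in genotype, so sex and control genotype cannot be told apart in it. The female difference minus the male difference was 1.79 for Gpx2, 0.81 for Gpx3 and 0.71 for Sod2 on 1417193_at. It was 0.18 for Sod1 on 1451124_at and 0.14 for Gpx4 on 1451695_a_at. Of the other redox genes, it was 1.96 for Aox1, the widest of the 12, 1.01 for Gclm and −0.095 for Nfe2l2. It was −0.74 for Txnrd1 on 1424487_x_at, −0.33 for Srxn1 on 1419942_at and −0.31 for Srxn1 on 1451680_at. For the brightest Hnf4a probe set it was −0.78. The pair values of Aox1 were −0.26 in the males and 1.70 in the females. Those of Gclm were −0.68 in the males and 0.33 in the females, and those of Nfe2l2 were 0.054 and −0.041. Sod1, Gpx4, Nfe2l2 and the Srxn1 probe set 1451680_at had at least 1 pair within 0.05 of no difference.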

How the results depend on the processing

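The count of antioxidant probe sets past the threshold was 0 under the 7 alternatives that kept all 4 arrays, and 0 to 1 with an array left out, the 1 being Gpx2 without the null male. The count for other redox genes was likewise 0 under those 7 and 0 to 1 with an array left out, the 1 being Aox1. An unadjusted p under 0.05 was found in limma for 4 antioxidant probe sets of 3 genes, all lower, where 1.72% of all probe sets tested were lower at that p. Taking each gene by its brightest probe set, it was found for 2 antioxidant genes, both lower, and 5 other redox genes. Of these 5, 4 were lower and 1, Chac1, from whose p nothing is read, was higher. Over all genes 1.75% were lower and 1.46% higher at that p. Over all probe sets the 2 calls became 29 with sex as a block and 1 with a prior that has no trend, and ranged from 0 to 35 with an array left out: 35 without the null male, 10 without the null female, 3 without the control female and 0 without the control male. The median difference of the antioxidant probe sets ranged from −0.31 without the control female to 0.01 without the control male. Of the 154 comparisons of a member with an alternative, 9 changed sign. Gpx3 was −0.0066 without normalization and −0.32 to 0.39 with an array left out. With an array left out, Gpx2 ranged from −0.35 to 1.34, Sod2 (1417193_at) from −0.29 to 0.066, Sod1 from −0.39 to 0.026 on 1435304_at and −0.19 to 0.031 on 1451124_at, and Gpx4 (1451695_a_at) from −0.031 to 0.15. The cause was not tested. The groups share no replicate numbers, and the block by sex, which sets 1 null against 1 control animal within each sex, was the paired analysis. The males have neighbouring replicate numbers, and so do the females, so the block by sex is also a block by neighbouring numbers. Without detection calls, signal over background is unknown for the dim Sod2 probe set and the Chac1 controls.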
